A study of Mus musculus with 9 samples.

Results

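The genes described here are 35 that build, cross-link, contract or anchor the actin cytoskeleton, among them the filamins Flna and Flnc. They were taken from a list that was chosen with earlier results of these data known, with no expression threshold. Each was represented by the probe set with the highest mean log2(signal + 16) over 9 expression arrays. All 35 of these genes, of 18193 with a probe set of their own on the array, had such a probe set, and all 35 passed the filter on low signal. The RNA came from NIH 3T3, a permanent fibroblast line of mouse embryos. The cells were transduced with a retroviral vector for a short hairpin RNA (shRNA) and harvested 5 days later. There were 3 arrays each, labelled as biological replicates, for a hairpin against Ube2m, a hairpin against Ube2f and a control hairpin. The labels describe the cells of all groups, controls included, as expressing Ube2f, without saying from where, and do not say whether a culture was a pool or 1 clone. A p-value below rests on the spread between these cultures within a group, in which any shift shared by the arrays of replicate 3 is included. It does not measure a spread between hairpins.

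NEDD8 is a small ubiquitin-like protein that is attached to cullins and thereby switches on the ubiquitin ligases that are built on them. Ube2m and Ube2f encode the NEDD8-conjugating enzymes, and the study compared cells depleted of each. Filaments of actin are cross-linked by filamins and alpha-actinins, stabilised by tropomyosins, pulled by non-muscle myosin and tied to integrins at focal adhesions by talin, vinculin and LIM-domain proteins. Fibroblasts build stress fibres from this machinery and turn on smooth muscle isoforms of it when they become contractile. Many of these genes are transcribed through serum response factor (SRF), which binds CArG boxes together with myocardin-related cofactors that sense monomeric actin, or through TEAD factors, which bind MCAT motifs.

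On the brightest of 6 Ube2f probe sets, the signal with the hairpin against Ube2f was 5.21% of the control mean. The other Ube2f sets are not described here. The array had no probe set assigned to Ube2m alone, so the knockdown of Ube2m was not checked here. Of 12 fibroblast genes 11 passed the filter, with a summed signal of 143200 to 158700 with Ube2m shRNA, 162100 to 182700 with Ube2f shRNA and 146400 to 177400 with control shRNA. Among them Col5a1 (-0.48, limma adjusted p = 0.00731) and Thy1 (-0.70, adjusted p = 0.0163) fell with Ube2m shRNA and Pdgfra rose with Ube2f shRNA (0.72, adjusted p = 0.00997), and Col5a1, Pdgfra, Pdgfrb and Thy1 were lower with Ube2m than with Ube2f shRNA. The Thy1 call against control passed in 7 of the 9 fits that left out 1 array (limma adjusted p up to 0.0757). Its value was -0.92 in replicates 1 and 2 and -0.25 in replicate 3. The part of these marker genes in the results below was not tested. Of 10 skeletal muscle markers 8 did not pass the filter, among them Myod1, Myog, Myf5 and Ckm. Des and Acta1 passed it. Acta1 was higher with Ube2m shRNA than with control (0.68, adjusted p = 0.0278) and Ube2f shRNA (0.97, adjusted p = 0.00253), while Des was not called. Replicate 3 stood apart, with a median signal over all probe sets of 73.2 with Ube2m shRNA, 73.5 with Ube2f shRNA and 64 with control shRNA, against 53.3 to 58.5 on the other 6 arrays. Control replicate 1 had a 3' to 5' ratio of the beta-actin control probe sets of 1.82, against 1.24 to 1.35 on the other 8 arrays. Differences are therefore also given for replicates 1 and 2 alone for some of the genes where replicate 3 changed them, and without control replicate 1 where that ended a call. In RNA from whole cultures, fewer cells that express a gene and less of its RNA per cell cannot be told apart.

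Changes among the 35 genes were few. With Ube2m shRNA 4 of 35 (11.4%) passed the test against control, Cnn1 higher and Lima1, Ahnak and Ahnak2 lower, in a comparison in which 9.71% of all 10613 genes tested did (3.59% higher and 6.12% lower; limma, Benjamini-Hochberg adjusted p under 0.05). With Ube2f shRNA 5 (14.3%) passed, namely Flna, Flnc, Actg2, Ahnak and Ahnak2, all of them lower, against 5.19% of all genes (2.23% higher and 2.96% lower). Between the knockdowns 7 (20%) passed, with Flna, Flnc, Actg2, Cnn1, Srf and Ahnak higher and Mylk lower with Ube2m than with Ube2f shRNA, against 15.8% of all genes (6.37% higher and 9.38% lower). The share of members called with Ube2m shRNA was thus near that of all genes. Since the members were chosen with earlier results of these data known, a share above that of all genes is no evidence about them. At an unadjusted p under 0.05 the counts were 2 higher and 6 lower, 1 higher and 8 lower, and 9 higher and 2 lower in these 3 comparisons. The shares of all genes at that level were not counted, so these numbers show nothing particular to the members. The comparisons share samples: both knockdowns were set against the same 3 control arrays.

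**Figure D1:**
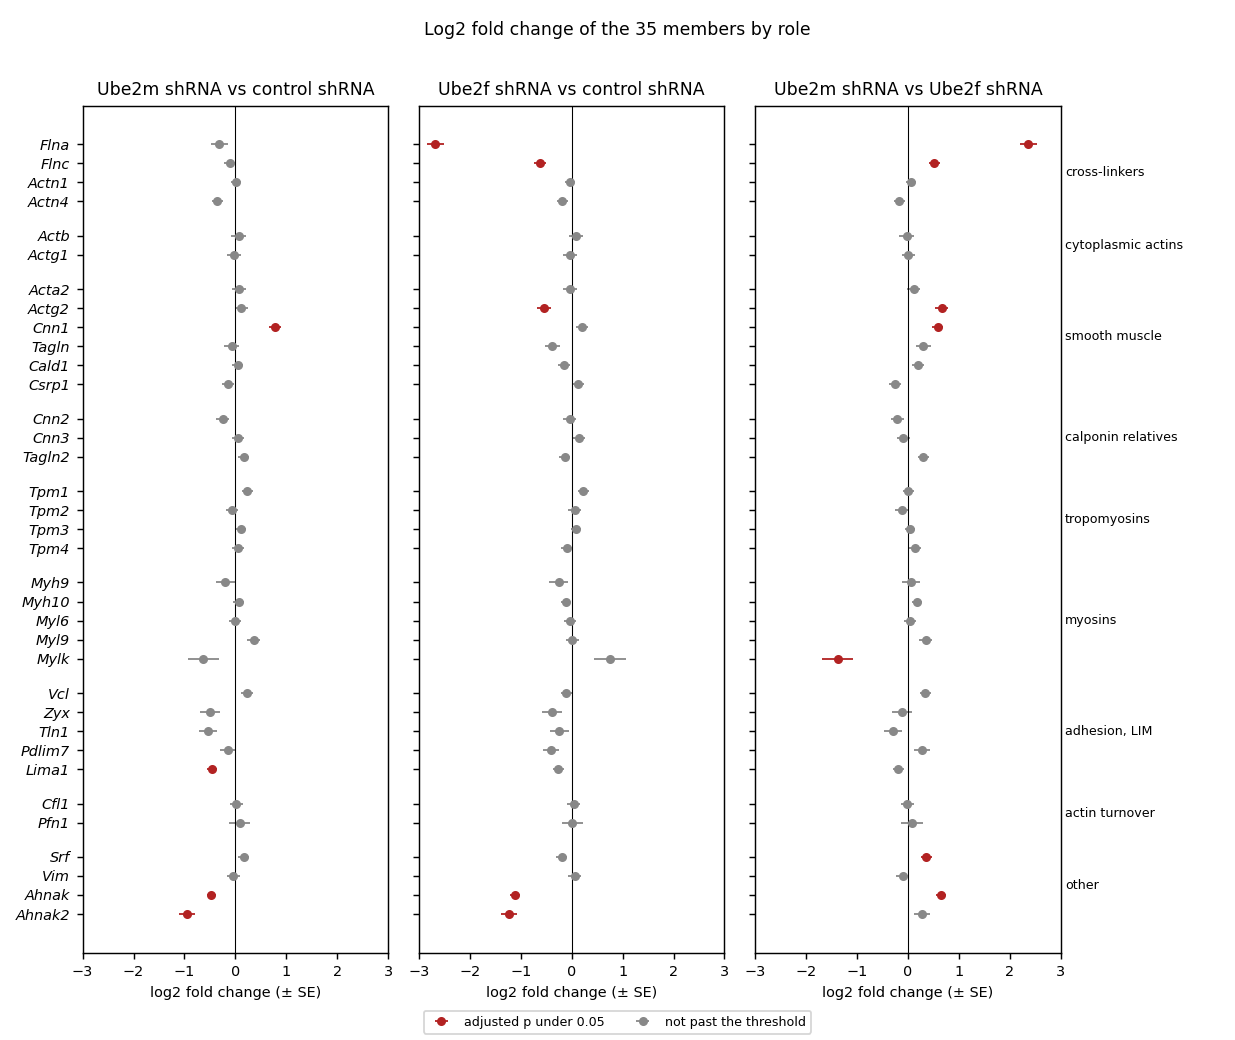
Log2 fold change (x axis, ± SE of the limma fit, 3 arrays per group) of the 35 genes by role, with panels for each knockdown against control and for Ube2m against Ube2f shRNA, and values past an adjusted p of 0.05 in red. Most points sit near 0, and Flna stands far from the rest in the panels that involve Ube2f shRNA, while Ahnak and Ahnak2 lie left of 0 in both panels against control.

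Groups of arrays were separate, with no overlap, for 8 members (22.9%, 4 higher and 4 lower) in Ube2m shRNA against control, where 29.7% of all genes tested were. They were separate for 11 members (31.4%, 2 higher and 9 lower) in Ube2f shRNA against control, against 23.2% of all genes, and for 13 (37.1%, 10 higher and 3 lower) between the knockdowns, against 34.4%. The median log2 fold change of the members was 0.0001, -0.09 and 0.06 in these comparisons, beside -0.04, 0.01 and -0.04 over all genes. Direction often differed between replicates. With Ube2m shRNA 16 members (45.7%), against 34.8% of all genes, lay on opposite sides of control in replicates 1 and 2 and in replicate 3, and with Ube2f shRNA 15 (42.9%) did, against 37% of all genes. In replicate 3, 25 members were lower than control with Ube2m and 29 with Ube2f shRNA, where both differences share control replicate 3. In replicates 1 and 2 these counts were 15 and 18. The median of the members in replicate 3 was -0.26 with either knockdown, beside -0.02 with Ube2m and 0.03 with Ube2f shRNA over all genes. The share of all genes that were lower in replicate 3 was not counted. Between the knockdowns 8 members (22.9%) switched sides, against 23.5% of all genes.

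Filamin A had the largest fold change of the 35. Flna encodes the ubiquitous filamin, a rod-like dimer that cross-links actin filaments at wide angles and links them to integrins. Its signal was 5520.3, 5081.6 and 6277.9 on the Ube2m shRNA arrays, 799.9, 1195.1 and 1298.9 on the Ube2f shRNA arrays and 8088.5, 6164.5 and 6845.0 on the control arrays. Each Ube2f array lay far below every other array, while the Ube2m and control arrays overlapped. The mean of 1098 ± 263 with Ube2f shRNA (SD, n = 3 arrays) was 15.6% of the control mean of 7033 ± 976 (log2 fold change -2.68, SE 0.17, limma adjusted p = 2.86e-06). The difference was -2.83 in replicates 1 and 2 and -2.38 in replicate 3. With Ube2m shRNA the mean was 5627 ± 605 and the log2 fold change against control -0.32 (SE 0.17, adjusted p = 0.271). Set directly against each other, Ube2m shRNA was higher than Ube2f shRNA by 2.36 (adjusted p = 3.21e-06). The calls held without any 1 of the 9 arrays. Flna had 1 probe set on the array, so no second one was there to set beside it.

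Flnc encodes filamin C, the muscle-enriched member of the family. Its signal was 2053.9, 1915.6 and 2105.4 with Ube2m shRNA, 1421.3, 1531.9 and 1278.6 with Ube2f shRNA and 2403.2, 1980.5 and 2177.9 with control shRNA. The Ube2f arrays were again the lowest and did not overlap either other group. Flnc fell with Ube2f shRNA to 64.5% of the control mean (log2 fold change -0.63, SE 0.11, adjusted p = 0.00694) and was 0.52 higher with Ube2m than with Ube2f shRNA (adjusted p = 0.00747). With Ube2m shRNA it was -0.11 against control (adjusted p = 0.611). A dimmer Flnc probe set gave -0.11 with Ube2f shRNA, where control replicate 3 read 2133.2 and the other control arrays 782.6 and 500.3. Averaging both left a log2 fold change of -0.37 (adjusted p = 0.42), and centring each array on its median -0.69 (adjusted p = 0.0724). The difference between the knockdowns was also lost under both settings, at 0.51 (adjusted p = 0.162) and 0.50 (adjusted p = 0.119).

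The 2 filamin promoters are shown because both genes were called lower with Ube2f shRNA, Flnc not under every setting. The MCAT core marked in them is also found in members called in no comparison, among them Acta2, Cald1 and Pfn1. Both filamin windows, from 250 bases before to 50 after the transcription start, hold 1 match to the MCAT core CATTCC, printed in capitals (RefSeq, GRCm38.p6). That of Flna lies on the minus strand at chrX:74246485-74246784, with the match starting 146 bases before the start site. Flnc has 2 overlapping windows for its transcripts, of which the one at chr6:29433006-29433305 on the plus strand is given, with the match 104 bases before the start.
Flna: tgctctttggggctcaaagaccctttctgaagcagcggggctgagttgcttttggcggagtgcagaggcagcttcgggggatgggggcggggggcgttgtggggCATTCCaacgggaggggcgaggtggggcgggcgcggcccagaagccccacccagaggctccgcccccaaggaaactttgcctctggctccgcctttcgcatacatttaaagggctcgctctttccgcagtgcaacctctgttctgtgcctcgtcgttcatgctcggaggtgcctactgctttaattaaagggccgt
Flnc: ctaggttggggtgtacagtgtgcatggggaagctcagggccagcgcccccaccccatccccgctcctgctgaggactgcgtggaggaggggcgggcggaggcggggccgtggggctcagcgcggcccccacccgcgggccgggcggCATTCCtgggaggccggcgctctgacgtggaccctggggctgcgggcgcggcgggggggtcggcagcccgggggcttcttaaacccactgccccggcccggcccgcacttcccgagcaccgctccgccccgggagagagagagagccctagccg

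The alpha-actinins, which bundle antiparallel filaments in stress fibres, did not pass in any comparison. Actn1 ranged over all 9 arrays from 9308.1 to 10896.2, with log2 fold changes against control of 0.01 with Ube2m and -0.04 with Ube2f shRNA. Its 2 dimmer probe sets gave -0.62 and -0.43 with Ube2m and -0.76 and -0.58 with Ube2f shRNA, none past the threshold (adjusted p from 0.113 to 0.365 over all probe sets with 1 gene). Actn4 read 7999.3, 7944.8 and 7854.4 with Ube2m shRNA, 8149.1, 9452.1 and 9261.4 with Ube2f shRNA and 10163.2, 9036.4 and 11447.2 with control shRNA. Every Ube2m array was below every control array, but the log2 fold change of -0.36 (SE 0.11) missed the threshold (adjusted p = 0.0556). It passed with replicate 3 as a term in the fit (adjusted p = 0.0142), with quantile normalization (0.0338) and with a stricter filter (0.0478). All 4 cross-linkers had a negative value with Ube2f shRNA.

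**Figure D2:**
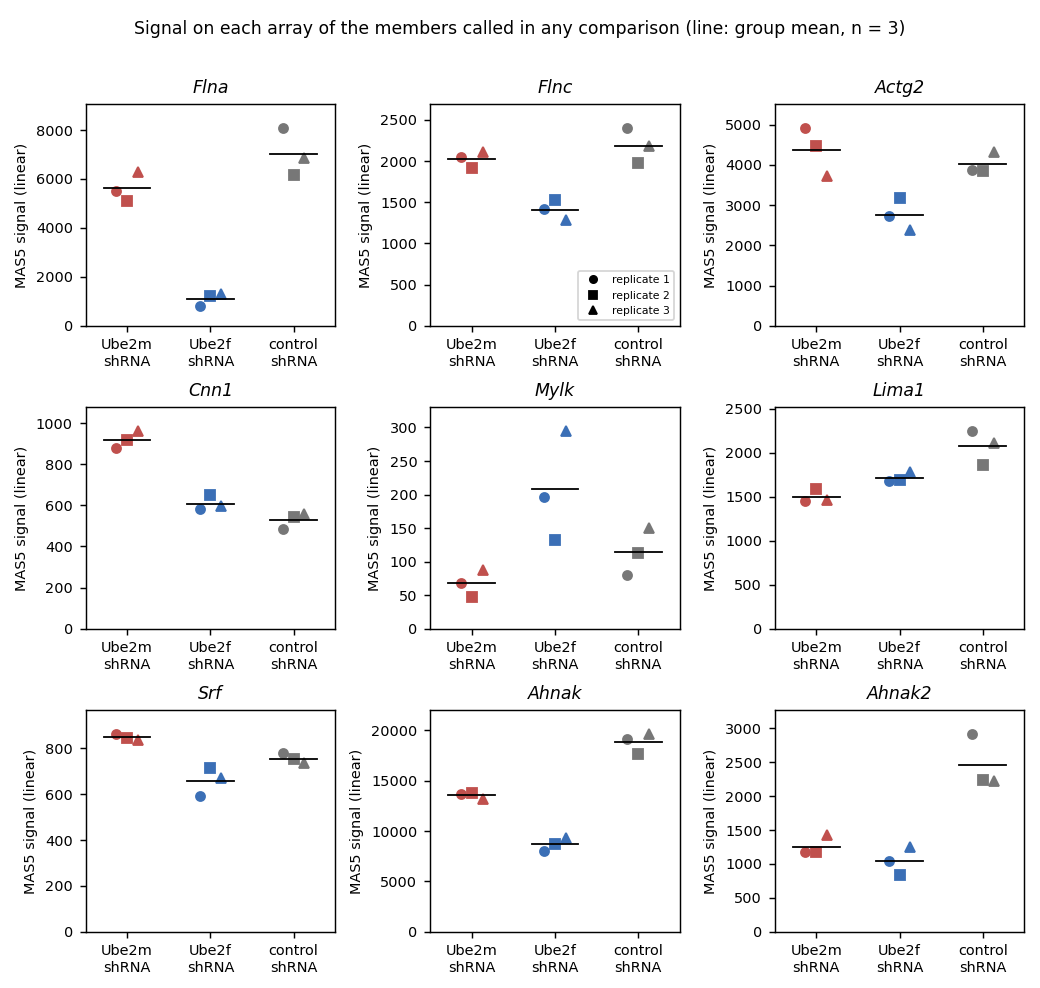
MAS5 signal on a linear scale (y axis, from 0) on each of the 9 arrays for the 9 genes past the threshold in any comparison, with Ube2m, Ube2f and control shRNA from left to right, replicates 1 to 3 as circle, square and triangle, and a line at each group mean (n = 3). Flna is far lower on all Ube2f arrays, Cnn1 higher on all Ube2m arrays, and Ahnak and Ahnak2 lower on the arrays of both knockdowns than on the control arrays.

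Of the 6 smooth muscle genes, 1 passed in each comparison against control. Cnn1 encodes calponin 1, an actin-binding protein of smooth muscle that inhibits actomyosin ATPase. Its signal was 879.5, 916.4 and 962.4 with Ube2m shRNA, 581.4, 648.4 and 597.6 with Ube2f shRNA and 486.4, 542.2 and 559.6 with control shRNA. All Ube2m arrays were above all others, and the Ube2f arrays were above the control arrays by a small margin. Cnn1 rose with Ube2m shRNA to 919 ± 41.5, against 529 ± 38.2 in control cells (SD, 3 arrays in either group). The log2 fold change was 0.78 (SE 0.11, limma adjusted p = 0.00134), and Cnn1 was 0.58 higher than with Ube2f shRNA (adjusted p = 0.00449). The value with Ube2f shRNA against control was 0.20 (adjusted p = 0.365). Both calls passed under all 14 other settings and without any 1 array.

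Actg2, the gamma-actin of visceral smooth muscle, moved with the other knockdown. It read 4919.8, 4467.1 and 3726.2 with Ube2m shRNA, 2734.1, 3172.4 and 2376.1 with Ube2f shRNA and 3863.9, 3857.3 and 4320.2 with control shRNA. The Ube2f arrays lay below all others, while Ube2m and control arrays overlapped. Actg2 fell with Ube2f shRNA to 68.8% of the control mean (log2 fold change -0.55, SE 0.13, adjusted p = 0.0315) and was higher by 0.66 with Ube2m than with Ube2f shRNA (adjusted p = 0.00477). The call against control was fragile and passed with only 3 of the 9 arrays left out in turn. The adjusted p was 0.0789, 0.06 and 0.0799 without control replicate 1, 2 or 3, 0.119 and 0.0746 without Ube2f replicate 1 or 3, and 0.0563 without Ube2m replicate 2, with a log2 fold change from -0.65 to -0.44. It was 0.208 with arrays centred, 0.0753 with no intensity trend and 0.0892 with the 3' to 5' ratio of beta-actin in the model. The difference between the knockdowns passed without any 1 array but not with arrays centred (0.64, adjusted p = 0.101).

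The remaining smooth muscle genes did not pass. Acta2 encodes the alpha-actin that marks contractile fibroblasts, and it read 33759.8, 33354.5 and 27741.2 with Ube2m shRNA, 27606.7, 34666.5 and 26088.1 with Ube2f shRNA and 28740.2, 27071.1 and 34332.1 with control shRNA. Its groups overlapped fully, with log2 fold changes against control of 0.08 with Ube2m shRNA (0.27 in replicates 1 and 2, -0.31 in replicate 3) and -0.03 with Ube2f shRNA. The Acta2 set used carries the suffix for probes shared by transcripts of several genes. Its other sets had control means of 41.6 and 55.9. They gave 0.76 and 0.56 with Ube2m and 0.88 and 0.02 with Ube2f shRNA, none past the threshold. These dim sets enter the averaged values below. Tagln, which encodes the actin-bundling protein transgelin, had all 3 Ube2f arrays below the control arrays (log2 fold change -0.38, adjusted p = 0.151), yet -0.18 in replicates 1 and 2 and -0.77 in replicate 3. Cald1, encoding caldesmon, an actin-bound inhibitor of myosin, stood at 0.04 with Ube2m and -0.15 with Ube2f shRNA. With Ube2m shRNA it was 0.22 in replicates 1 and 2 and -0.31 in replicate 3. Csrp1, encoding a LIM protein of smooth muscle, stood at -0.14 and 0.12. In replicates 1 and 2 alone, Cald1 and Tagln passed between the knockdowns (0.27 and 0.32 higher with Ube2m shRNA, limma adjusted p = 0.029 and 0.0433). The median of the 6 genes was 0.06 with Ube2m and -0.09 with Ube2f shRNA. It turned to -0.03 with Ube2m shRNA when arrays were centred and to 0.10 with Ube2f shRNA when probe sets were averaged, so it has no settled direction. Of the smooth-muscle-restricted markers, Myh11 had means of 27.1, 19.2 and 8.3 with Ube2m, Ube2f and control shRNA and Myocd of 3.13, 25.7 and 10.3, below the signal of 53.8 at which the filter was set. The other 3 markers of that list, Smtn, Lmod1 and Des, passed the filter. Smtn was well above it, with means of 900.4, 931.6 and 1126 with Ube2m, Ube2f and control shRNA, while Lmod1 and Des lay near it. None of these 3 passed the test in any comparison.

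The calponin relatives of non-muscle cells did not pass. Tagln2, encoding transgelin 2, came nearest, with 6495.8, 5676.5 and 6270.2 with Ube2m shRNA and 4656.8, 5429.2 and 4869.5 with Ube2f shRNA. Those groups were separate, and the log2 fold change was 0.30 (adjusted p = 0.0591, or 0.0196 with replicate 3 as a term). Cnn2 and Cnn3, which encode calponins 2 and 3, had log2 fold changes between -0.25 and 0.14 in the 3 comparisons.

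Cytoplasmic actins, the bulk of actin in fibroblasts, were level between groups on the probe sets used. Actb, encoding beta-actin, read 25921.8, 25444.7 and 24617.5 with Ube2m shRNA, 23533.2, 29614.4 and 24423.5 with Ube2f shRNA and 22360.0, 20520.6 and 31116.5 with control shRNA. Control replicate 3 was the highest of all 9 arrays and control replicate 2 the lowest. The log2 fold change was 0.06 with Ube2m shRNA (adjusted p = 0.85) and 0.08 with Ube2f shRNA (adjusted p = 0.808), but the knockdowns lay above control in replicates 1 and 2 (0.26 and 0.30) and below it in replicate 3 (-0.34 and -0.35). Actg1, encoding gamma-actin, had -0.03 with Ube2m and -0.04 with Ube2f shRNA and the same split between replicates. Control replicate 1 also had the high beta-actin ratio given above; its part in these values was not tested. Cfl1 and Pfn1, which encode cofilin, a filament-severing protein, and profilin, a carrier of actin monomers, lay between -0.02 and 0.09 in all 3 comparisons. Cfl1 was above control in replicates 1 and 2 (0.20 with either knockdown) and below it in replicate 3 (-0.34 with Ube2m and -0.28 with Ube2f shRNA).

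Tropomyosins, which wrap along the filament and set which myosins reach it, differed little between groups on the probe sets used. All 12 log2 fold changes of Tpm1, Tpm2, Tpm3 and Tpm4 lay between -0.13 and 0.23, and 0 of the 4 genes had even an unadjusted p under 0.05 in any comparison. Tpm1 read 8535.6, 8333.4 and 7297.4 with Ube2m shRNA, 8137.9, 8185.0 and 7679.8 with Ube2f shRNA and 6016.7, 7354.3 and 7273.7 with control shRNA. Its Ube2f arrays were all above the control arrays, at 0.22 (adjusted p = 0.273), and the Ube2m arrays overlapped them at 0.23 (adjusted p = 0.212). In replicates 1 and 2 alone Tpm1 passed with Ube2m shRNA (0.34, adjusted p = 0.0356). Tpm2, Tpm3 and Tpm4 had overlapping groups in every comparison. With Ube2m shRNA against control they gave 0.09, 0.19 and 0.23 in replicates 1 and 2, and -0.38, -0.04 and -0.32 in replicate 3. A dimmer Tpm3 probe set rose by 1.58 with Ube2m shRNA (adjusted p = 0.000826), and with probe sets averaged Tpm3 passed at 0.55 (adjusted p = 0.0196).

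**Figure D3:**
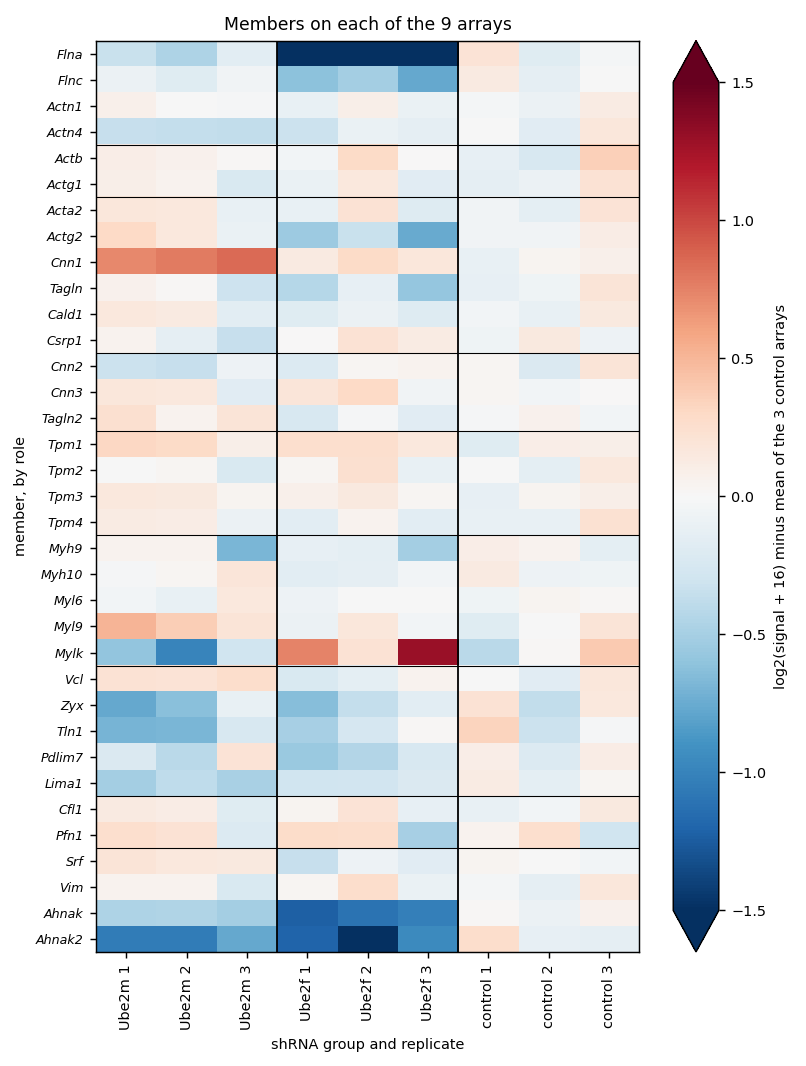
Log2(signal + 16) of each of the 35 genes (rows, by role) on each array (columns, with Ube2m, Ube2f and control shRNA from left to right) as the difference from that gene's mean over the 3 control arrays, with red for higher and blue for lower and the colour scale cut at 1.5 either way. Flna is darkest blue on all 3 Ube2f arrays, Cnn1 red on all 3 Ube2m arrays, and Ahnak and Ahnak2 blue on the arrays of both knockdowns.

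Among the myosin genes, Mylk differed between the knockdowns. It encodes myosin light chain kinase, which switches on contraction by phosphorylating the regulatory light chain. The signal was 68.0, 47.7 and 87.5 with Ube2m shRNA, 196.6, 132.1 and 294.9 with Ube2f shRNA and 79.6, 112.8 and 150.4 with control shRNA. Every Ube2f array was above every Ube2m array, with the control arrays between and overlapping both. Mylk was lower with Ube2m than with Ube2f shRNA (log2 fold change -1.38, SE 0.31, limma adjusted p = 0.00914), a call that passed without any 1 array. Against control it was -0.63 with Ube2m (adjusted p = 0.231) and 0.75 with Ube2f shRNA (adjusted p = 0.188). These signals lie near the filter, a signal of 53.8, and 2 dimmer Mylk probe sets gave -0.68 and 0.03 between the knockdowns.

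Myl9, encoding the regulatory light chain itself, read 4545.1, 4135.1 and 3658.1 with Ube2m shRNA, 3001.4, 3575.8 and 3102.9 with Ube2f shRNA and 2802.8, 3167.9 and 3647.7 with control shRNA. The Ube2m arrays were above both other groups, with replicate 3 hardly above the highest control array, and the log2 fold change of 0.36 did not pass against control (adjusted p = 0.0912) or against Ube2f shRNA (0.35, adjusted p = 0.0825). Against control it was 0.54 in replicates 1 and 2 and 0.0041 in replicate 3. On the probe sets used, the heavy chains Myh9 and Myh10 of non-muscle myosin and the essential light chain Myl6 lay between -0.26 and 0.17 in all comparisons. For Myh9 the set used gave -0.20 with Ube2m shRNA against control, while its dimmer sets gave 0.43, 0.41, 0.24 and 0.95, none past the threshold. Between the knockdowns these gave 0.28, 0.65, 0.62 and -0.46, the last from by far the dimmest set. The value of 0.65 passed (limma adjusted p = 0.0348 over all probe sets with 1 gene). For Myl6, 2 further probe sets assigned to several genes were not used.

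Among the adhesion and LIM genes, Lima1 passed against control. It encodes EPLIN, a LIM protein that bundles filaments and slows their disassembly. It read 1449.3, 1589.9 and 1469.5 with Ube2m shRNA, 1678.8, 1693.9 and 1781.2 with Ube2f shRNA and 2250.2, 1860.3 and 2112.3 with control shRNA. The Ube2m arrays were the lowest, the Ube2f arrays came next and the control arrays the highest, with no overlap. Lima1 fell with Ube2m shRNA to 72.5% of the control mean (log2 fold change -0.46, SE 0.11, adjusted p = 0.0181) and was -0.27 with Ube2f shRNA (adjusted p = 0.174). The call ended without control replicate 1 (-0.40, adjusted p = 0.0656), Ube2m replicate 1 (-0.43, adjusted p = 0.0848) or Ube2m replicate 2 (-0.50, adjusted p = 0.0515), and with probe sets averaged (-0.07, adjusted p = 0.865). It also ended with arrays centred (-0.54, adjusted p = 0.0703) and with the 3' to 5' ratio of beta-actin in the model (-0.40, adjusted p = 0.0716). The probe set used carries the suffix for probes shared by transcripts of several genes. With suffixed sets left out the value was 0.12 (adjusted p = 0.845), while another Lima1 set, also without a suffix, gave -0.41.

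The other adhesion genes did not pass. Tln1 encodes talin, which activates integrins, and Zyx encodes zyxin, a mechanosensitive LIM protein. Tln1 read 1695.6, 1704.9 and 2330.6 with Ube2m shRNA and 3487.0, 2205.5 and 2716.6 with control shRNA (log2 fold change -0.54, adjusted p = 0.0835). Zyx read 2892.4, 3186.9 and 4570.7 against 5751.4, 3814.1 and 5514.8 in the same groups (-0.51, adjusted p = 0.124). In both genes replicate 3 of Ube2m shRNA overlapped the control arrays, and replicates 1 and 2 alone gave -0.70 (adjusted p = 0.0161) for Tln1 and -0.62 (adjusted p = 0.0213) for Zyx. Pdlim7, encoding a PDZ-LIM protein of stress fibres, had all Ube2f arrays below the control arrays (-0.41, adjusted p = 0.156, or 0.0207 with replicate 3 as a term). Vcl encodes vinculin, which couples talin to actin. Its signal was 13427.6, 13287.2 and 13825.0 with Ube2m shRNA, 9822.9, 10427.3 and 11923.9 with Ube2f shRNA and 11507.5, 10277.1 and 12953.3 with control shRNA. The Ube2m arrays were above both other groups, at 0.34 over Ube2f shRNA (adjusted p = 0.0576, or 0.00898 with replicate 3 as a term) and 0.23 over control (adjusted p = 0.225). With Ube2f shRNA all 5 adhesion genes had a negative value, with a median of -0.27, but with probe sets averaged 2 were positive and 3 negative.

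Ahnak and Ahnak2 were the members past the threshold against control in both knockdowns. They encode very large scaffold proteins; AHNAK binds actin and membranes. Ahnak read 13654.7, 13726.5 and 13221.6 with Ube2m shRNA, 8037.6, 8701.3 and 9261.0 with Ube2f shRNA and 19095.4, 17686.8 and 19648.6 with control shRNA. The 3 groups formed 3 separate steps, lowest with Ube2f and highest with control shRNA. Ahnak fell with Ube2m shRNA to 71.95% of the control mean (log2 fold change -0.47, SE 0.09, limma adjusted p = 0.00884). It fell with Ube2f shRNA to 46.1% (-1.12, adjusted p = 4.4e-05) and was 0.64 higher with Ube2m than with Ube2f shRNA (adjusted p = 0.000667). Its dimmer probe sets did not keep the order between the knockdowns. The 2 of them above the filter gave -0.85 and -0.99 with Ube2m and 0.04 and -0.25 with Ube2f shRNA against control, none past the threshold. With probe sets averaged the fall with Ube2f shRNA was no longer called (-0.62, adjusted p = 0.113) and the difference between the knockdowns turned to -0.27 (adjusted p = 0.437). With arrays centred the Ube2m value was -0.56 (adjusted p = 0.0938).

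Ahnak2 had 1 probe set, with 1173.3, 1170.5 and 1420.7 for Ube2m shRNA, 1048.6, 840.4 and 1250.5 for Ube2f shRNA and 2919.4, 2232.6 and 2225.6 for control shRNA. The arrays of both knockdowns lay below all control arrays and overlapped each other. The gene fell to 51% of the control mean with Ube2m shRNA (log2 fold change -0.96, SE 0.16, adjusted p = 0.00292) and to 42.6% with Ube2f shRNA (-1.23, adjusted p = 0.00105), and the knockdowns differed by 0.27 (adjusted p = 0.29). Both calls passed under all 14 other settings and without any 1 array. In replicates 1 and 2 the values were -1.11 and -1.43, and in replicate 3 -0.64 and -0.82.

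The promoters of these genes are shown because they fell in both knockdowns, and that of Srf because it holds 2 CArG boxes. The windows of Ahnak at chr19:8989034-8989333 on the plus strand and of Ahnak2 at chr12:112795693-112795992 on the minus strand each hold 1 MCAT core in capitals, 135 and 189 bases before the start, the second as its reverse complement GGAATG. The window of Srf at chr17:46556113-46556412 on the minus strand has 2 CArG boxes in capitals, 82 and 62 bases before the start.
Ahnak: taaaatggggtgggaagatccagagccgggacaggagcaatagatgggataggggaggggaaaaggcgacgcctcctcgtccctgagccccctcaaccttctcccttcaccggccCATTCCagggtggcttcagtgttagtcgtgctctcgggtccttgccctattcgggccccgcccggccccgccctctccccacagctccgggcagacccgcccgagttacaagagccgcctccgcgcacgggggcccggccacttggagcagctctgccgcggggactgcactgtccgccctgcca
Ahnak2: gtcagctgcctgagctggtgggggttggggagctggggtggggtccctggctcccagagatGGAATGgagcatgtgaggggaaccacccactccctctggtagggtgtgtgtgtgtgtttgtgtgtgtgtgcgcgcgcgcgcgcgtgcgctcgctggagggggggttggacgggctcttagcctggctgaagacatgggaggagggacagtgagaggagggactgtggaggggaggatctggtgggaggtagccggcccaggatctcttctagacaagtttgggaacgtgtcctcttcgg
Srf: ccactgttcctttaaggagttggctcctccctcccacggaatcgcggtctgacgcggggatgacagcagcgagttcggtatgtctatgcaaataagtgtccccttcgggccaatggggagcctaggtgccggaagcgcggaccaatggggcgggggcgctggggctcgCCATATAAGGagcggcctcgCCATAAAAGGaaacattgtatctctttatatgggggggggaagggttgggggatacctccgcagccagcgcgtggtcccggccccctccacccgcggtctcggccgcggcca

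Srf encodes serum response factor. It read 863.2, 844.9 and 837.2 with Ube2m shRNA, 593.3, 714.5 and 669.2 with Ube2f shRNA and 777.6, 755.3 and 734.0 with control shRNA. The Ube2m arrays were highest and the Ube2f arrays lowest, with all 3 groups separate. Srf was higher with Ube2m than with Ube2f shRNA by 0.36 (SE 0.11, adjusted p = 0.0452), while 0.16 and -0.20 against control did not pass (adjusted p = 0.402 and 0.358). Of the 9 fits that left out 1 array, that call passed in the 2 without control replicate 1 or 3. Its adjusted p was 0.0603 without control replicate 2, 0.185, 0.0501 and 0.0714 without Ube2f replicate 1, 2 or 3, 0.141, 0.126 and 0.0882 without Ube2m replicate 1, 2 or 3, and 0.0651 in replicates 1 and 2. The value was 0.11 with probe sets averaged (adjusted p = 0.718) and 0.34 with arrays centred (adjusted p = 0.272). A second Srf probe set gave -0.15 (adjusted p = 0.74 with suffixed sets left out). Vim, the intermediate filament gene of mesenchymal cells, was at -0.04 with Ube2m and 0.06 with Ube2f shRNA. Against control these values were 0.13 and 0.23 in replicates 1 and 2, and -0.40 and -0.27 in replicate 3.

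Over the promoter table, 32 of the 35 members had a window, Actb, Actg2 and Tagln having none there. A CArG box (CC, 6 bases of A or T, GG, a pattern equal to its own complement) was found in 7 of the 32 genes (21.9%), namely Actg1, Cnn2, Lima1, Myl6, Myl9, Srf and Vcl, against 1.81% of all 27025 genes and 1.63% of all 32851 windows. The MCAT core CATTCC, searched on both strands, was found in 13 (40.6%), against 16.6% of all genes and 14.7% of all windows. No match of one motif overlapped one of the other. The 13 genes with an MCAT core were Acta2, Actn4, Ahnak, Ahnak2, Cald1, Flna, Flnc, Myh10, Mylk, Pfn1, Tagln2, Tpm1 and Vcl. A match is a description of the letters, not of a bound site.

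**Figure D4:**
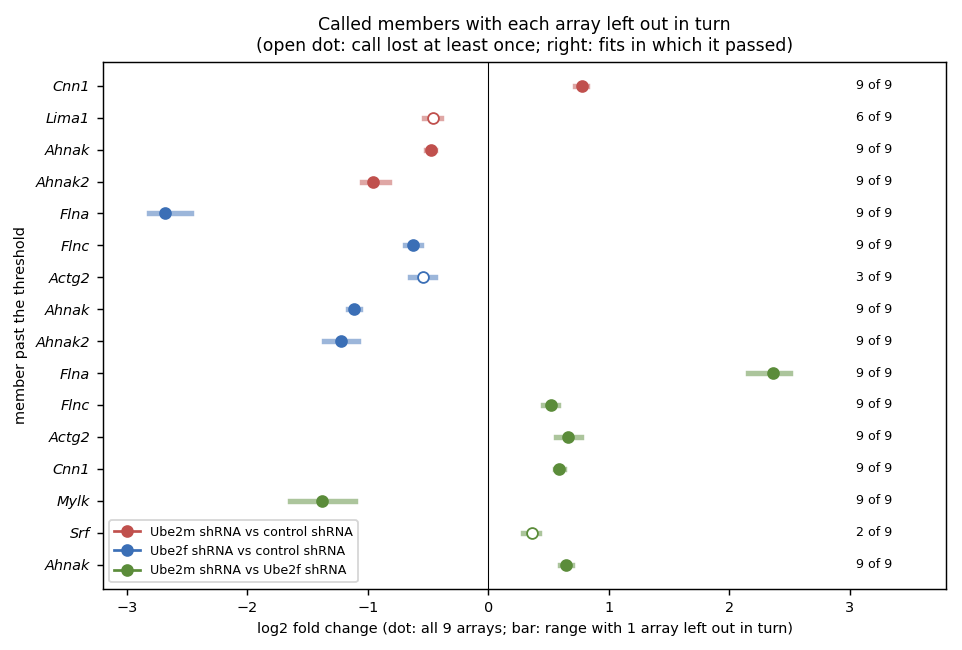
Log2 fold change of each gene past the threshold (x axis), from all 9 arrays (dot) and over the fits with 1 array left out in turn (bar), for the 3 comparisons in 3 colours, with the number of the 9 fits in which it passed at the right. The bars of Lima1, Actg2 (against control) and Srf belong to open dots, whose call was lost at least once, and no bar crosses 0.

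For 26 members no comparison passed. Their log2 fold changes ran from -0.54 to 0.36 with Ube2m shRNA, from -0.41 to 0.22 with Ube2f shRNA and from -0.30 to 0.35 between the knockdowns, and 21, 22 and 19 of them were under 0.25 in size. Missing the threshold does not show that these genes did not change.

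**Figure D5:**
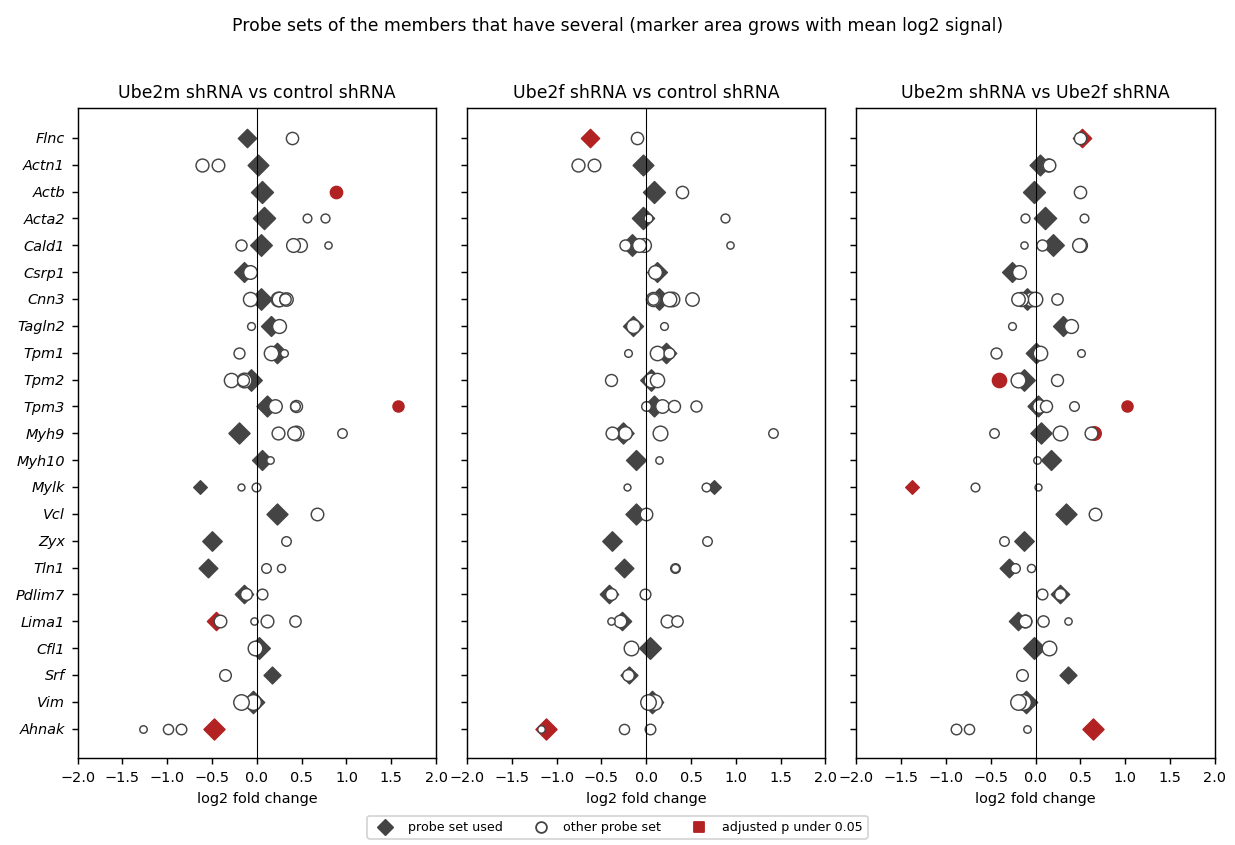
Log2 fold change (x axis) of every probe set of the 23 members that have several, with diamonds for the set used, circles for the others, red for an adjusted p under 0.05 over all probe sets with 1 gene, and marker area growing with mean log2 signal. For Lima1, Ahnak and Srf some circles lie far from the diamond, and single red circles stand out for Actb and Tpm3.

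Beyond the members, a list held 147 further symbols of actin cytoskeleton genes and their partners, some of them older and newer names of the same gene. Of these symbols 129 had a probe set and 115 were tested. With Ube2m shRNA 3 were higher and 11 lower than control (12.2%, against 9.71% of all genes). Those that rose were Pfn2, a profilin (0.75, adjusted p = 0.00128), Tes, a LIM protein of focal adhesions (0.58, adjusted p = 0.00466), and Acta1, the skeletal alpha-actin (0.68, adjusted p = 0.0278). Acta1 passed in 5 of the 9 fits that left out 1 array, and not without Ube2m replicate 1 or 2 or control replicate 1 or 2 (adjusted p from 0.0564 to 0.124). It is on the list of skeletal muscle markers, of which 8 of 10 did not pass the filter. The summed signal of that list was 1083 to 1268 with Ube2m shRNA, 669.8 to 751.2 with Ube2f shRNA and 668.6 to 955.6 with control shRNA. Acta1 itself, with means of 957.2, 481.8 and 594.6 in these groups, made up most of each sum. The sums therefore repeat the Acta1 values and do not show a rise of the other markers. The genes with the smallest p among those that fell were Rhob, a small GTPase of stress fibre signalling, the adducins Add3 and Add1, which cap filaments on the spectrin skeleton, and the LIM protein genes Csrp2 and Trip6. Rhob read 2514.2, 2577.1 and 3482.3 with Ube2m shRNA, 9241.3, 10452.7 and 11013.3 with Ube2f shRNA and 10341.0, 9712.2 and 10178.5 with control shRNA. Its Ube2m arrays were far below all others (log2 fold change against control -1.83, adjusted p = 4.47e-06). The call of Trip6 was lost without Ube2m replicate 2 or control replicate 1 (adjusted p = 0.0743 and 0.06), and that of Add1 without Ube2m replicate 1 or 2 or control replicate 1 (0.0838, 0.0637 and 0.062).

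With Ube2f shRNA 1 of the 115 was higher and 9 were lower (8.7%, against 5.19% of all genes). Rnd3, an atypical small GTPase that opposes stress fibres, rose by 0.61 (adjusted p = 0.00801). Fhl1, a LIM-only protein of muscle and stress fibres, read 13380.9, 13118.8 and 11423.7 with Ube2m shRNA, 4451.8, 4988.9 and 4032.3 with Ube2f shRNA and 8226.6, 8435.6 and 12389.8 with control shRNA. The Ube2f arrays lay below all others (-1.08, adjusted p = 0.00154). Tns3, encoding the adhesion protein tensin 3, fell by 0.86 on the log2 scale, Arpc5, a subunit of the actin-branching complex, by 0.66, Pdlim1, a PDZ-LIM protein that binds alpha-actinin, by 0.64, and Kctd10, an adaptor of cullin 3, by 0.52 (adjusted p from 0.000749 to 0.0153). Without Ube2f replicate 1 the calls of Rnd3 (adjusted p = 0.0514), Pdlim1 (0.0601) and Kctd10 (0.0868) were lost, and without control replicate 1 those of Pdlim1 (0.0518) and Kctd10 (0.0562). Of the 9 tested genes listed as filamin partners or their ubiquitin ligases, Kctd10 was the only one called in this comparison.

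Between the knockdowns 16 were higher and 10 lower with Ube2m than with Ube2f shRNA (22.6%, against 15.8% of all genes). The smallest p among the higher ones belonged to Fhl1 (1.49), Tes (0.95), Arpc5 (0.83), Pfn2 (0.74) and Pdlim1 (0.82), with adjusted p from 4.41e-05 to 0.000917. Those among the lower ones belonged to Rhob (-1.85), Add3 (-0.91), Csrp2 (-0.66), Arhgef2, an activator of RhoA (-0.80), and Add1 (-0.47), with adjusted p from 2.54e-06 to 0.0052. Each of these 10 calls passed without any 1 of the 9 arrays.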

How the data were processed

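The authors made the deposited values with MAS5, per the submitters' processing notes, and they were read as the intensity of each probe set on a linear scale. The sources used here give neither its version nor its settings. Of 45101 probe sets in the deposited table, 64 controls, 932 assigned to several genes and 9160 unnamed were left out, and 34945 were named from the platform's annotation. The deposited intensities were converted here to log2(signal + 16), and 1 probe set per gene was kept. A filter kept the 10613 genes with a mean of at least 6.125 on this log2 scale, the median over probe sets other than controls. All 9 arrays entered 1 limma model of the 3 groups (version 3.58.1, R 4.3.3; lmFit and eBayes with an intensity trend), with two-sided tests and Benjamini-Hochberg adjustment over all genes tested. The SD is over signals and the SE from this fit. With 3 arrays a side an exact permutation p is at least 0.1, so none was used. The fit was tested on simulated data with independent noise on each array. They held neither the shift of replicate 3 nor the high beta-actin ratio of control replicate 1, so that test cannot show how the fit handles these. The 35 members and the other lists were chosen with earlier results of these data known; of the other genes, the text names up to 5 higher and 5 lower per comparison with the smallest p. Lists were described, not tested. The alternatives were other added constants, filters, probe set rules, scalings, replicate terms and covariates, and leaving out each array. For arrays no depth is counted, and their number limits the precision.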

Additional observations from a re-analysis of the deposited data

Results flagged for a closer look

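Of 52 other probe sets of the members, 2 passed the test against control with Ube2m shRNA, over all probe sets with 1 gene, and neither was used above, being dimmer than the set kept for its gene. The share of all probe sets with 1 gene that passed was not counted, so this number shows nothing particular to the members. An Actb probe set read 1202.5, 1460.8 and 1576.0 with Ube2m shRNA, 1069.8, 1044.0 and 879.9 with Ube2f shRNA and 682.1, 743.1 and 838.2 with control shRNA. The Ube2m arrays were above all others, and the Ube2f arrays above the control arrays. Its log2 fold change was 0.89 with Ube2m (adjusted p = 0.0058) and 0.40 with Ube2f shRNA (adjusted p = 0.216), while the brighter Actb set gave 0.06 and 0.08. The beta-actin control probe set at the 5' end read 24770, 24520 and 22260 with Ube2m shRNA, 21680, 28300 and 23150 with Ube2f shRNA and 14260, 19720 and 27730 with control shRNA, and its part in the difference was not tested.

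A Tpm3 probe set read 752.0, 718.9 and 594.0 with Ube2m shRNA, 330.2, 373.1 and 292.0 with Ube2f shRNA and 197.5, 265.8 and 199.7 with control shRNA. All 3 groups were separate, highest with Ube2m shRNA. The log2 fold change was 1.58 with Ube2m shRNA against control (adjusted p = 0.000826), 0.56 with Ube2f shRNA (adjusted p = 0.164) and 1.02 between the knockdowns (adjusted p = 0.00504). The Tpm3 set used in the report gave 0.11, 0.08 and 0.03, and the other 3 Tpm3 sets 0.21, 0.43 and 0.43 with Ube2m shRNA. The sources used here do not say which Tpm3 transcripts this set reads. Between the knockdowns a Myh9 set (0.65 higher with Ube2m shRNA) and a Tpm2 set (-0.41) that the report does not use also passed.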

How the results depend on the processing

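Each result was recomputed under 14 other settings and without each of the 9 arrays. Calls of all genes, 1031 with Ube2m shRNA and 551 with Ube2f shRNA against control and 1672 between the knockdowns, became 607, 271 and 1109 with probe sets averaged, 525, 222 and 868 with arrays centred on their median, and 2118, 1461 and 2714 with replicate 3 as a term. Against control alone they became 448 and 249 with the 3' to 5' ratio of beta-actin in the model and 1747 and 1121 in replicates 1 and 2 only, and with only the groups compared in the fit 350 for Ube2f shRNA. Leaving out 1 array gave 388 to 1177, 195 to 583 and 1017 to 1813. The counts fell by over 1.5 times with Ube2m shRNA without control replicate 1 (472) or Ube2m replicate 1 (443) or 2 (388), with Ube2f shRNA without control replicate 1 (281) or Ube2f replicate 1 (195) or 2 (342), and between the knockdowns without Ube2f replicate 1 (1018) or Ube2m replicate 1 (1063) or 2 (1017). Centring moved the split against control with Ube2m shRNA to 124 higher and 401 lower (381 and 650 without it) and with Ube2f shRNA to 50 and 172 (237 and 314).

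Among the members, higher calls with Ube2m shRNA (1 in the report) were 3 with probe sets averaged (Actb, Cnn1 and Tpm3), 2 with suffixed sets left out (Actb and Cnn1), 2 with replicate 3 as a term (Cnn1 and Myl9), 4 in replicates 1 and 2 (Cnn1, Myl9, Tpm1 and Vcl), and 1 to 2 without single arrays. Lower calls (3) were 1 with arrays centred (Ahnak2), 6 with replicate 3 as a term (Actn4, Tln1 and Zyx added) and 5 in replicates 1 and 2, and 2 to 5 without single arrays. With Ube2f shRNA higher calls (0) were 1 with replicate 3 as a term (Mylk) and 0 without any single array, and lower calls (5) were 3 with probe sets averaged (Actg2, Ahnak2 and Flna), 3 with arrays centred (Ahnak, Ahnak2 and Flna) and 4 to 5 without single arrays. Between the knockdowns higher calls (6) were 2 with arrays centred (Cnn1 and Flna) and 5 to 7 without single arrays, and lower calls (1) were 0 with the stricter filter and 0 with probe sets averaged, both of which left Mylk untested, 2 with quantile normalization (Mylk and Vim) and 1 without any single array. With suffixed probe sets left out, Lima1 turned to 0.12 with Ube2m shRNA, Srf to -0.15 and Actb to 0.49 (adjusted p = 0.0287) between the knockdowns, and Ahnak to -0.27 between the knockdowns with probe sets averaged. Beside these reversals, over all members and settings, calls were lost 7, 12 and 17 times and gained 24, 5 and 17 times in the 3 comparisons. The cause of these moves was not tested. The calls of Flna, Cnn1 and Ahnak2 passed under every setting that was run.

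Same-numbered replicates were not treated as pairs, since not every pair deviated together from its group mean. Correlations were 0.317 to 0.557 in replicate 3, 0.157 to 0.211 in replicate 2 and 0.201 between the knockdowns in replicate 1, but -0.005 and 0.015 between Ube2m or Ube2f replicate 1 and control replicate 1. Nor did every array correlate best with its own number. With a replicate block 1866, 1225 and 2493 genes passed, among them 2 members higher and 6 lower with Ube2m, 6 lower with Ube2f shRNA, and 9 higher and 1 lower between the knockdowns. The calls gained were Myl9 higher and Actn4, Tln1 and Zyx lower with Ube2m shRNA, Pdlim7 lower with Ube2f shRNA, and Myl9, Tagln2 and Vcl higher between the knockdowns.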
